A study of Homo sapiens with 6 samples.

Results

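The 40 genes described here mark or help to maintain endothelial identity, and were taken by symbol from a list set by their known roles. The rule uses no measured value, but the list was made with earlier results of these data known. All 40 were found among the 22153 genes of the table. They were measured in EA.hy926, a human line made by fusing an umbilical vein endothelial cell with the lung carcinoma line A549 and labelled endothelial. Polyadenylated RNA was sequenced from 3 libraries of cells at 20% oxygen (normoxia) and 3 libraries of cells held for 8 h at 1% oxygen (hypoxia), all of the same line and all grown in high-glucose medium with serum. The series asks which transcripts differ after the hypoxic interval. Whether replicates were separate cultures is not labelled, so a p-value here reflects the spread among these 6 libraries, and that spread may be technical. Each library held 17226736 to 18652704 reads assigned to genes. EA.hy926 is a single hybrid line, and nothing here was measured in either parent.

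Endothelial cells are specified by a small set of transcription factors. ETS family members such as ERG and FLI1, SOX factors of the F group, GATA2 with its partners LYL1 and LMO2, and the flow-responsive KLF2 act together on endothelial enhancers. Their targets include surface proteins that hold the vessel wall together and keep it quiet, among them PECAM1, the Tie receptors, CD34, ROBO4 and CLEC14A.

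Of the 40 genes, 37 were expressed in normoxia, defined as a level of 1 or more in each of the 3 normoxia libraries on an FPKM scale (size-factor-scaled reads per exon length, over the mean total of the 6 libraries). That is 92.5% of the list, beside 57.5% of the 14565 protein-coding genes in the table. Levels between genes are given per length on this scale, as the mean ± SD of the 3 normoxia libraries. The secreted protein EGFL7, which endothelial cells deposit around forming vessels, stood highest at 699 ± 63.2. The cross-linking enzyme TGM2 followed at 629 ± 122 and the caveolar coat protein CAVIN1 at 423 ± 142, and these 3 genes lay in the top 1% of protein-coding genes by level. A further 10 members lay in the top 5%: KLF2 at 238 ± 79.5, CAV1 at 196 ± 69.5, MMRN2 at 135 ± 69.7, PECAM1 at 119 ± 40.5, TIE1 at 108 ± 42.3, CLEC14A at 101 ± 51.0, ICAM2 at 84.0 ± 15.4, CD59 at 71.6 ± 14.1, SOX18 at 68.1 ± 47.9 and ECSCR at 60.4 ± 5.68. In all, 29 members lay in the top 25%, and their whole range spanned 535-fold, down to KLF4 at 1.31 ± 0.208. The median level of the 37 expressed members was 24.5, beside 7.67 for the protein-coding genes that met the same definition.

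**Figure D1:**
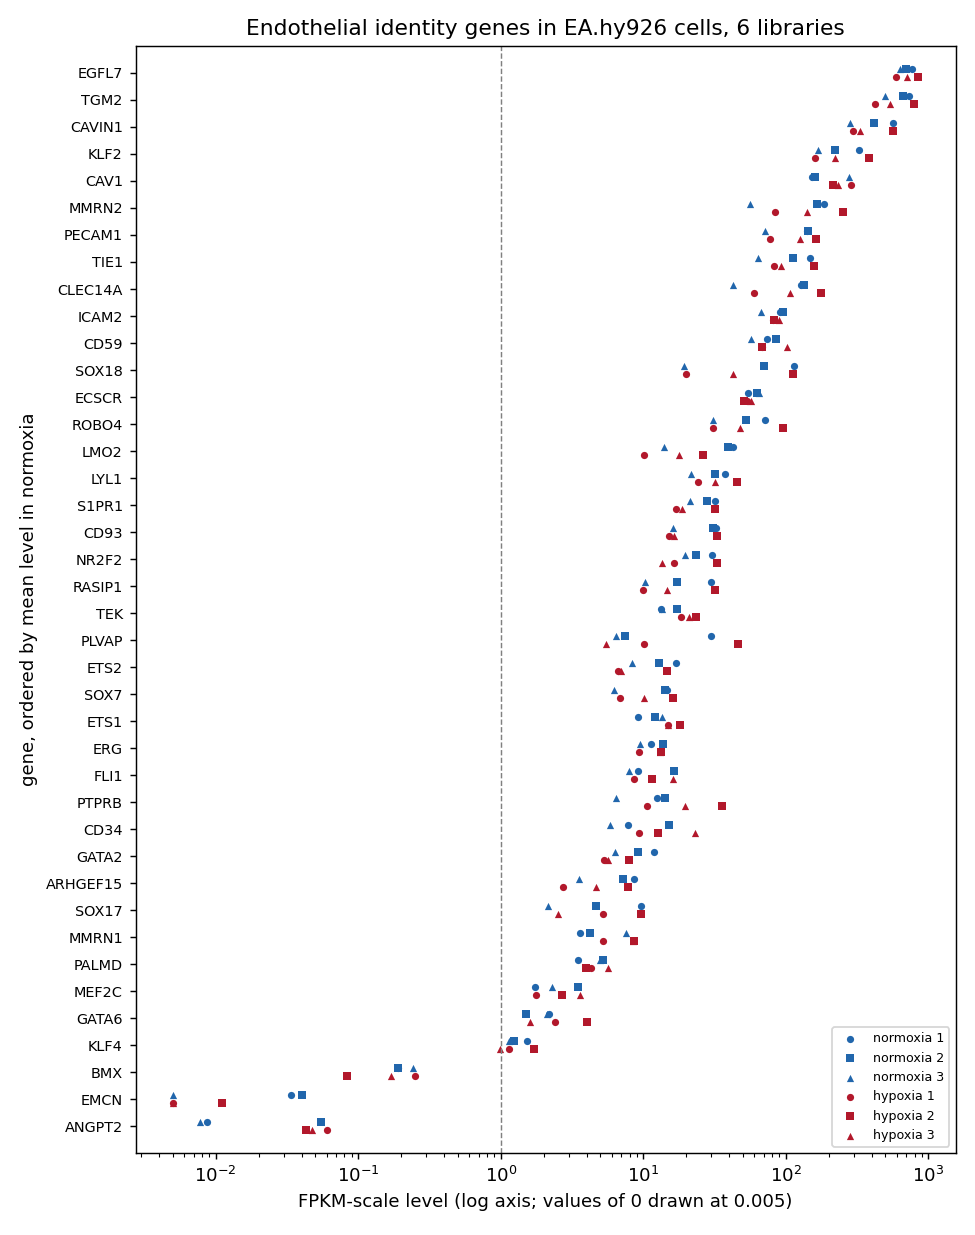
Levels of the 40 endothelial identity genes in each library, on a logarithmic FPKM-scale axis, with normoxia in blue and hypoxia in red and the replicate shown by the marker shape. The dashed line marks a level of 1; 37 genes lie above it in all 3 normoxia libraries, and ANGPT2, EMCN and BMX lie below it in every library.

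The 3 genes below the level were detected with few reads. ANGPT2, the angiopoietin that endothelial cells release to oppose the signal of ANGPT1 at the Tie2 receptor, had 1, 7 and 1 whole reads in normoxia and 7, 5 and 6 in hypoxia. EMCN, the sialomucin endomucin of capillaries and veins, had 3, 4 and 0 whole reads in normoxia and 0, 1 and 0 in hypoxia. BMX, a TEC family kinase found in arterial endothelium, had 9, 10 and 13 whole reads in normoxia and 12, 4 and 9 in hypoxia. These counts are too low for a comparison between the groups, and none of the 3 genes entered the test.

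No member passed the test for a difference between hypoxia and normoxia. Limma called 0 of the 37 members tested at an adjusted p below 0.05, in a fit over 10237 genes of which 0.0977% were called. At an unadjusted p below 0.05 there was 1 member, TEK, beside 2.69% of all genes tested. The count tests on the recovered reads also called 0 members, with 0.402% of genes called by DESeq2 and 0.0674% by edgeR, and limma after a correction for GC content called 0, with 0.254% called. The log2 difference was above 0 in 23 members and below 0 in 14, with a median of 0.05, and 50.6% of all genes tested were above 0, with a median of 0.00. The groups did not overlap in 2 members, TEK and ETS1, both higher in hypoxia, while 4.77% of all genes tested did so in that direction. The labelled treatment was visible in the same fit, in which the HIF target BNIP3 was 11.2-fold higher and the glycolytic enzyme PGK1 3.39-fold higher in hypoxia (adjusted p = 0.00207 and 0.0236 by limma). ANGPTL4, PFKFB4, SLC2A1 and LDHA of the same check also passed by limma. ADM and VEGFA of the check did not, although they were 5.20-fold and 2.89-fold higher and their groups did not overlap (adjusted p = 0.107 and 0.863 by limma). The methods differed on some of these genes. ADM and VEGFA passed by DESeq2 (adjusted p = 8.63e-07 and 0.0105) but not by edgeR. By limma after GC correction ADM passed (adjusted p = 0.0173), while VEGFA and PGK1 did not (adjusted p = 0.218 and 0.0977). LDHA did not pass by edgeR (adjusted p = 0.0606). The check genes were chosen with earlier results on these libraries known.

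**Figure D2:**
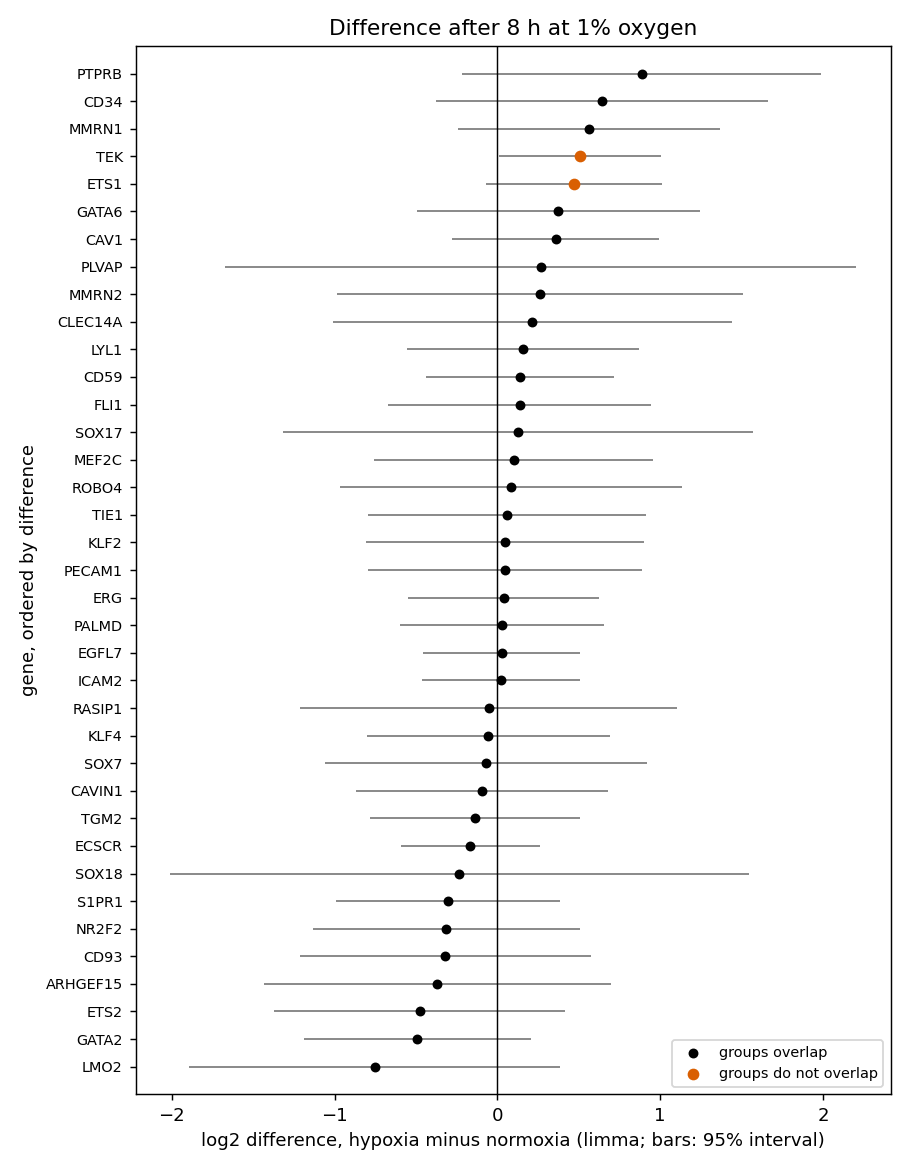
Log2 difference between hypoxia and normoxia for the 37 members tested, with bars for the 95% interval of the limma fit; members whose 3 hypoxia libraries lie outside the range of the 3 normoxia libraries are orange. The interval of TEK is the only one that lies wholly to one side of 0, and the point estimates run from -0.75 for LMO2 to 0.89 for PTPRB.

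The intervals set what could have been seen. At the median they reached 0.84 to either side on the log2 scale, and in 17 of 37 members the 95% interval lay inside a 2-fold change in either direction. For the other 20 members a change of that size lies within the interval. In 36 of the 37 members the highest and lowest normoxia libraries differed by a larger factor than the 2 group means did, the exception being TEK. That count was not taken over all genes. By a related measure, the log2 difference was smaller than the SD within groups in 83.8% of members and in 79.6% of all genes tested. The count of members above 0 rested on single libraries: it was 9 (median -0.18) without normoxia replicate 3 and 12 (median -0.19) without hypoxia replicate 2, but 30 (median 0.23) without hypoxia replicate 1 and 26 (median 0.17) without normoxia replicate 1.

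The main variation of these genes lay between libraries within each group. Hypoxia replicate 2 was the highest of the 6 libraries for 20 members (54.1%, beside 22.4% of all genes tested). Normoxia replicate 3 was the lowest for 14 members and hypoxia replicate 1 for 12, together 70.3% of members beside 41.0% of all genes. The median deviation of the members from their own 6-library mean, on the log2 scale, came to 0.31, 0.16 and -0.47 for normoxia replicates 1, 2 and 3, and to -0.40, 0.50 and -0.08 for hypoxia replicates 1, 2 and 3. Over all genes tested it stayed between -0.03 and 0.03 in the 6 libraries. The median SD within groups was 0.50 for the members and 0.38 for all genes, on the same log2 scale. In a bulk library a smaller number of cells of one kind and less RNA per cell cannot be told apart.

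**Figure D3:**
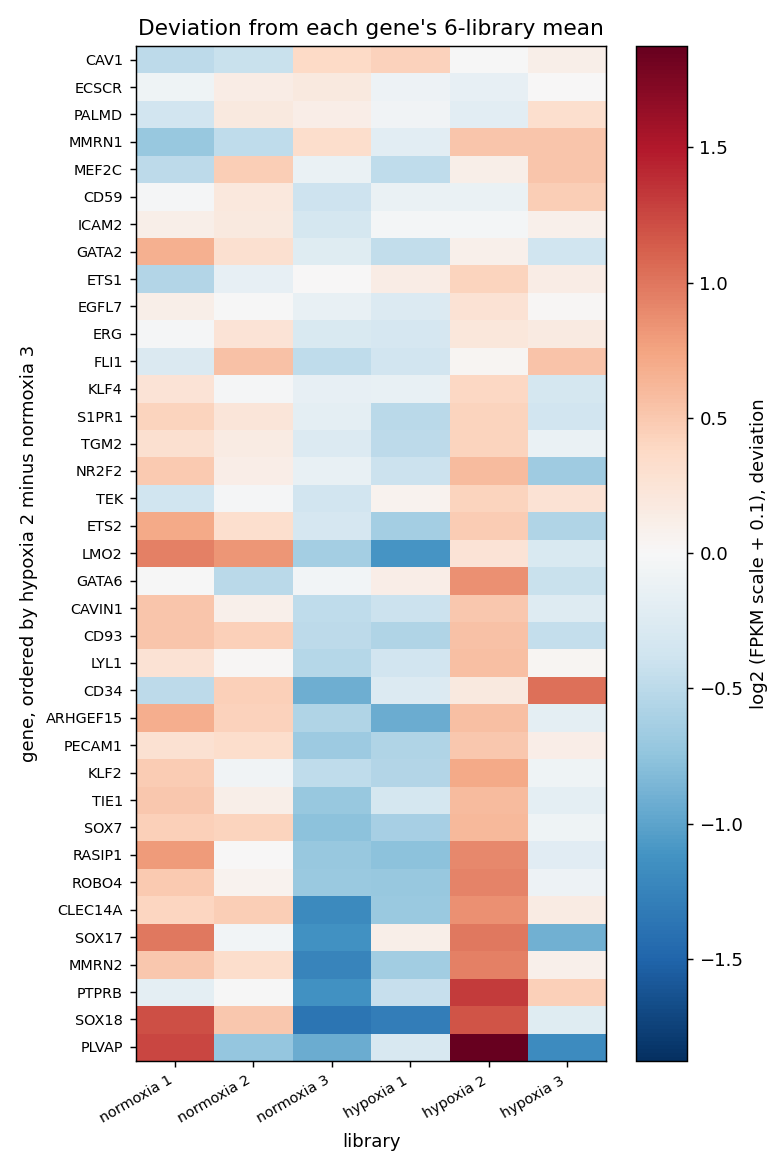
Deviation of each tested member from its own mean over the 6 libraries, on the log2 scale, with libraries as columns and genes ordered by the difference between hypoxia 2 and normoxia 3. Red marks a value above the gene's mean and blue one below it; normoxia 3 and hypoxia 1 are blue for most genes and hypoxia 2 is red.

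Deviations by base composition are set beside these values. Genes in the top 25% by GC content deviated by a median of 0.30 in normoxia replicate 1 and 0.27 in hypoxia replicate 2, and by -0.26 in normoxia replicate 3 and -0.14 in hypoxia replicate 1, the same signs as the members. In hypoxia replicate 3 they deviated by -0.17, further than in hypoxia replicate 1, while the members stood at -0.08, and in normoxia replicate 2 by 0.02, where the members stood at 0.16. The members had a median GC content of 55.0%, beside 49.5% over all genes tested, and 15 of the 37 fell in that top group. The 6 members that were lowest in normoxia replicate 1 instead (TEK, ETS1, MMRN1, CAV1, PALMD and MEF2C) had a GC content of 37.6% to 46.2%. Other members of low GC content did not go with them. PTPRB, FLI1, CD59 and CD34, at 42.4%, 42.7%, 45.5% and 47.0%, were lowest in normoxia replicate 3, and ERG, at 46.4%, in hypoxia replicate 1. After a smooth trend on GC content was removed from each library, the members' median deviation was still 0.45 in hypoxia replicate 2, -0.48 in normoxia replicate 3 and -0.39 in hypoxia replicate 1, while that in normoxia replicate 1 went from 0.31 to 0.20 and that in hypoxia replicate 3 from -0.08 to 0.04. After this step 30 members were lowest in normoxia replicate 3 or hypoxia replicate 1, against 26 before it. The share of all genes lowest in those libraries was not taken after this step, so the 30 cannot be set beside it. The part of other technical differences between libraries was not tested.

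Promoter sequences of the members with the widest and the narrowest range over libraries are shown because these genes mark the ends of that pattern. Among expressed members for which RefSeq (GRCh38.p14) lists a single start, the widest were PLVAP, MMRN2 and CLEC14A and the narrowest was ECSCR. The 250 bases before the start are given 5′ to 3′ on the gene's strand, with capitals for GGAA and its reverse complement TTCC, the core letters bound by ETS factors.
PLVAP (chr19:17377343-17377592, minus strand): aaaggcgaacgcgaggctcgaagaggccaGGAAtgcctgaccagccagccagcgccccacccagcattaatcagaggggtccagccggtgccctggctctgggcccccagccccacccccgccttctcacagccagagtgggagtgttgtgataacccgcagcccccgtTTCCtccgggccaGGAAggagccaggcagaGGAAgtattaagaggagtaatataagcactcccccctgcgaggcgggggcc
MMRN2 (chr10:86957616-86957865, minus strand): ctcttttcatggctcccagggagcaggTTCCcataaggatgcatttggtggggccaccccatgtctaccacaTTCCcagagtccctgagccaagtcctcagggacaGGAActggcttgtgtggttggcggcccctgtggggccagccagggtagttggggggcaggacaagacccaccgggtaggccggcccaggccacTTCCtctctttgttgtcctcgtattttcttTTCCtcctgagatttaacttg
CLEC14A (chr14:38256094-38256343, minus strand): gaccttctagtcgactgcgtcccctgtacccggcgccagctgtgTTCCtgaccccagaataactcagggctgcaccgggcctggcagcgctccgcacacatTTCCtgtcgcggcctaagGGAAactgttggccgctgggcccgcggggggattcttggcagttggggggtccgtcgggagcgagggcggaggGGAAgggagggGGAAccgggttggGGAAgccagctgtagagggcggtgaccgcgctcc
ECSCR (chr5:139462744-139462993, minus strand): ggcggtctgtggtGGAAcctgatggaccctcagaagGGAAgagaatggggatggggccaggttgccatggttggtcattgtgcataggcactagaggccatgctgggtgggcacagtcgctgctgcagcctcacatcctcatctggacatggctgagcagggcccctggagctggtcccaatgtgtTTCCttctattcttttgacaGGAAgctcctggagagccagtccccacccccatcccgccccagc
The window of PLVAP held 4 such matches, that of MMRN2 5, that of CLEC14A 6 and that of ECSCR 4.

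Over the 26 members with a listed promoter, taking the first listed start and both strands, GGAA was found in 24 windows (92.3%), beside 92.5% of the 13081 promoters of genes in the table. The longer ETS form CCGGAAGT, which contains GGAA, was found in 0 of 26, beside 6.18% of all promoters. The SOX core ATTGT was found in 6 (23.1%, beside 16.4%), the GATA motif AGATAA in 2 (7.69%, beside 5.44%) and the KLF core GGGTG in 19 (73.1%, beside 57.9%). The core of the hypoxia response element, ACGTG, was found in 6 windows, namely those of BMX, CAV1, ETS2, KLF4, MMRN1 and NR2F2 (23.1%, beside 22.8%). Matches are letters in these windows and were not measured as binding. Members without a listed promoter were ANGPT2, ARHGEF15, CAVIN1, CD93, ETS1, FLI1, ICAM2, LMO2, PECAM1, PTPRB, SOX17, SOX18, SOX7 and TGM2.

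Values of single genes are given as size-factor-scaled reads, the unit of the deposited table, in replicates 1, 2 and 3 of each group. PLVAP (ENSG00000130300, chromosome 19 from 17351448 to 17377350 on the minus strand, GENCODE 29, GRCh38), which forms the diaphragms of fenestrae and caveolae, had 1229.6, 308 and 265 in normoxia and 414, 1886 and 224 in hypoxia. It was high in normoxia replicate 1 and hypoxia replicate 2 and low in the other 4 libraries, over an 8.41-fold range that ran through both groups. MMRN2 (ENSG00000173269, chromosome 10 from 86935540 to 86969481 on the minus strand), a matrix protein of the endothelial surface that binds CLEC14A and CD93, had 17663, 15691 and 5297 in normoxia and 7936, 23917 and 13343 in hypoxia. Its receptor CLEC14A (ENSG00000176435, chromosome 14 from 38254103 to 38256369 on the minus strand), a C-type lectin of the endothelial surface, had 5147, 5407 and 1711 in normoxia and 2422, 7115 and 4334 in hypoxia. Both were lowest in normoxia replicate 3 and highest in hypoxia replicate 2, over ranges of 4.51-fold and 4.16-fold, and the groups overlapped. ECSCR (ENSG00000249751, chromosome 5 from 139448556 to 139462743 on the minus strand), a surface protein of endothelial cells, had 998, 1160.0 and 1194 in normoxia and 984, 946 and 1052 in hypoxia, a 1.26-fold range. Its exons share 72.5% of their length with an annotated gene on the same strand that was not analysed here, so its count is uncertain.

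The ETS factors were expressed at similar levels per length: ERG at 11.6 ± 2.18, FLI1 at 11.2 ± 4.53, ETS1 at 11.6 ± 2.25 and ETS2 at 12.8 ± 4.36, levels that did not differ beyond their SDs in normoxia. ERG, which holds endothelial cells in their differentiated state, had 1541, 1876 and 1286 scaled reads in normoxia and 1257, 1815 and 1768 in hypoxia. FLI1, its closest relative, had 1346, 2390.2 and 1164 in normoxia and 1264, 1673 and 2361 in hypoxia. In both genes the groups overlapped over nearly their whole range. ETS1 (ENSG00000134954, chromosome 11 from 128458761 to 128587558 on the minus strand), which acts in angiogenic sprouting, had 1167, 1539.8 and 1732 scaled reads in normoxia and 1903, 2313 and 1896 in hypoxia. Every hypoxia library of ETS1 lay above every normoxia library, with a log2 difference of 0.47 (interval at 95% from -0.07 up to 1.01; adjusted p = 1.00) by limma. Without normoxia replicate 1 it was 0.31, and without normoxia replicate 3 it was 0.59. ETS2, a broadly expressed relative, had 1402, 1063 and 687 scaled reads in normoxia and 548.6, 1196 and 574 in hypoxia and a log2 difference of -0.48 (interval at 95% from -1.37 up to 0.42; adjusted p = 1.00) by limma. Its highest value was in normoxia replicate 1 and its lowest in hypoxia replicate 1. The difference of ETS2 was -0.24 without normoxia replicate 1, -0.75 without normoxia replicate 3, and -0.28, -0.84 and -0.31 without hypoxia replicates 1, 2 and 3.

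Of the SOX F group, SOX18 stood highest per length at 68.1 ± 47.9, above SOX7 at 11.7 ± 4.71 and SOX17 at 5.50 ± 3.85. These factors act in the specification of arteries, veins and lymphatic vessels. SOX18 had 3823, 2341 and 639 scaled reads in normoxia and 667, 3746 and 1409.7 in hypoxia. SOX7 had 838, 816 and 358 in normoxia and 394, 931 and 579.9 in hypoxia and SOX17 had 406, 195 and 89.3 in normoxia and 218, 403 and 106 in hypoxia. All 3 genes were low in normoxia replicate 3, SOX18 and SOX7 were also low in hypoxia replicate 1, and SOX17 was low in hypoxia replicate 3, so that each group held high and low libraries. The exons of SOX7 share 39.4% of their length with an annotated gene on the same strand (PINX1, ENSG00000258724) that was not analysed here, and its count is uncertain.

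The Krüppel-like factors differed widely in level per length, with KLF2 at 238 ± 79.5 and KLF4 at 1.31 ± 0.208. Both are induced by laminar flow and restrain inflammatory genes in endothelium. KLF2 had 11703, 8013 and 6062 scaled reads in normoxia and 5728, 13779 and 7978 in hypoxia. KLF4, the expressed member with the lowest level, had 101, 81.4 and 74.3 in normoxia and 74.7, 111 and 64.6 in hypoxia. Neither showed a group apart from the other.

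Among the GATA and LMO2 complex genes, LMO2 had the lowest point estimate of the list. LMO2 (ENSG00000135363, chromosome 11 from 33858576 to 33892289 on the minus strand), a bridging protein that joins GATA2 and basic helix-loop-helix factors on DNA, had 2349, 2164 and 781 scaled reads in normoxia and 564, 1463 and 994 in hypoxia. Normoxia replicates 1 and 2 were high, but normoxia replicate 3 lay below 2 of the hypoxia libraries, and the log2 difference of -0.75 (interval at 95% from -1.90 up to 0.39; adjusted p = 1.00) by limma did not pass. Without normoxia replicate 3 it was -1.26, without normoxia replicate 1 -0.47 and without hypoxia replicate 1 -0.39. GATA2, the main endothelial GATA factor, had 940.5, 725 and 500.3 scaled reads in normoxia and 425, 628 and 453 in hypoxia and a log2 difference of -0.49 (interval at 95% from -1.19 up to 0.20; adjusted p = 1.00), or -0.28 without normoxia replicate 1. The helix-loop-helix factor LYL1 had 2077, 1760.4 and 1195 scaled reads in normoxia and 1347, 2544 and 1771 in hypoxia and did not separate the groups. GATA6 had 153, 105 and 148 scaled reads in normoxia and 168, 282 and 112 in hypoxia and stood at 1.92 ± 0.370 per length, below GATA2 at 9.07 ± 2.76.

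The other factors of vascular identity were NR2F2, which directs venous fate, and MEF2C, a MADS box factor upstream of KLF2. NR2F2 had 3515, 2721 and 2258 scaled reads in normoxia and 1882, 3790.0 and 1567 in hypoxia and stood at 24.5 ± 5.51 per length. MEF2C had 368, 733 and 479.6 scaled reads in normoxia and 372, 568 and 759 in hypoxia and stood at 2.51 ± 0.892. NR2F2 was highest in hypoxia replicate 2 and lowest in hypoxia replicate 3, so the spread within hypoxia covered all normoxia values.

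In the angiopoietin and Tie system the receptors and their phosphatase were expressed, while the ligand ANGPT2 was near 0 as described. TEK (ENSG00000120156, chromosome 9 from 27109141 to 27230175 on the plus strand), the Tie2 receptor, had 1149, 1479 and 1159.5 scaled reads in normoxia and 1568, 2001 and 1809 in hypoxia. All 3 hypoxia libraries lay above all 3 normoxia libraries, the group means differed 1.42-fold, and the log2 difference was 0.51 (interval at 95% from 0.01 up to 1.00; adjusted p = 1.00) by limma. The sign held in all 17 alternatives run for TEK, with differences from 0.36 to 0.62 and adjusted p values from 0.834 to 1.00 over limma, edgeR and DESeq2. With the groups of TEK apart, no removal of libraries could reverse that sign, so its holding is no independent support. TIE1, the orphan co-receptor of TEK, had 17643, 13437 and 7582 scaled reads in normoxia and 9840.0, 18819 and 10972 in hypoxia and overlapping groups. PTPRB (ENSG00000127329, chromosome 12 from 70515866 to 70637440 on the minus strand), the phosphatase that removes phosphate from TEK and from VE-cadherin partners, had 3266, 3692 and 1679 scaled reads in normoxia and 2741, 9288 and 5097 in hypoxia. Its point estimate was the highest of the list, with group means 1.98-fold apart and a log2 difference of 0.89 (interval at 95% from -0.22 up to 1.99; adjusted p = 1.00) by limma. Without hypoxia replicate 2 the log2 difference was 0.45, without normoxia replicate 3 it was 0.54, and without hypoxia replicate 1 it was 1.33.

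Every adhesion molecule, lectin and sialomucin of the list except EMCN met the definition of expression. PECAM1 (ENSG00000261371, chromosome 17 from 64319415 to 64413776 on the minus strand), the homophilic adhesion molecule of endothelial junctions, had 19414, 19913 and 9944 scaled reads in normoxia and 10808, 22583 and 17364 in hypoxia. Its 2 group means differed 1.03-fold, while single libraries differed up to 2.27-fold. ICAM2, a ligand for leukocyte integrins that resting endothelium carries, had 5253, 5502 and 3850.1 in normoxia and 4723, 4746 and 5203 in hypoxia, with a 1.43-fold range over the 6 libraries. Its exons share 26.8% of their length with PRR29 on the opposite strand, and whether reads were counted by strand is not stated. CD34, a sialomucin of endothelium and blood progenitors, had 1288, 2505 and 956 scaled reads in normoxia and 1529, 2074 and 3766 in hypoxia and a log2 difference of 0.64 (interval at 95% from -0.38 up to 1.66; adjusted p = 1.00) by limma, with hypoxia replicate 3 highest and normoxia replicate 3 lowest. The difference of CD34 moved to 0.29 when hypoxia replicate 3 was left out and to 0.34 when normoxia replicate 3 was, and it reached 1.03 with normoxia replicate 2 left out. CD93, the lectin-like partner of MMRN2, had 3899, 3695 and 1933 scaled reads in normoxia and 1824, 3958 and 1977 in hypoxia and a log2 difference of -0.32 (interval at 95% from -1.21 up to 0.57; adjusted p = 1.00). Normoxia replicate 3 and hypoxia replicates 1 and 3 formed the low libraries of CD93. Each library left out in turn moved its difference by over 1.5 times: leaving out normoxia replicates 1, 2 and 3 gave -0.14, -0.18 and -0.64, and leaving out hypoxia replicates 1, 2 and 3 gave -0.12, -0.67 and -0.17. MMRN1, a multimerin stored in platelets and endothelial cells, had 354, 419 and 739 scaled reads in normoxia and 510.3, 839.9 and 839 in hypoxia and a log2 difference of 0.56 (interval at 95% from -0.24 up to 1.37; adjusted p = 1.00). Normoxia replicate 3 of MMRN1 lay above hypoxia replicate 1, so its groups overlapped. The difference of MMRN1 was 0.35 without normoxia replicate 1 and 0.87 without normoxia replicate 3.

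The receptors ROBO4 and S1PR1 and the secreted EGFL7 were each lowest in hypoxia replicate 1. ROBO4, a guidance receptor that stabilises vessels, had 8944, 6641 and 3901 scaled reads in normoxia and 3879.8, 12036 and 5943 in hypoxia. S1PR1, the sphingosine 1-phosphate receptor that supports barrier function, had 2975, 2612 and 1971 in normoxia and 1575, 2974 and 1735 in hypoxia. In ROBO4 hypoxia replicate 2 lay above every other library, and in S1PR1 it lay level with normoxia replicate 1. EGFL7, the most abundant member per length, had 34744, 31921 and 28984 scaled reads in normoxia and 26974, 38710.0 and 32482 in hypoxia and a narrow 1.44-fold range.

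The coat genes of caveolae did not vary together over the libraries. CAVIN1, which shapes the caveolar coat, had 38768, 28617 and 19397 scaled reads in normoxia and 20346, 38339.9 and 22692 in hypoxia. CAV1, the integral caveolin of the same structure, had 11143, 11638 and 20154 in normoxia and 20980.5, 15572 and 16858 in hypoxia. CAVIN1 was lowest in normoxia replicate 3 and hypoxia replicate 1, the libraries in which CAV1 was highest. The GC content of the transcripts was 59.9% for CAVIN1 and 46.2% for CAV1.

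The members left to describe were RASIP1, ARHGEF15, TGM2, PALMD and the surface protein CD59. The Ras-interacting protein RASIP1, needed for vessel lumens, had 2203, 1269 and 767 scaled reads in normoxia and 743, 2360.1 and 1094 in hypoxia. ARHGEF15, a guanine nucleotide exchange factor of vascular cells, had 809, 678 and 335 in normoxia and 257, 743 and 439 in hypoxia and a log2 difference of -0.37 (interval at 95% from -1.43 up to 0.70; adjusted p = 1.00) by limma. Both were low in normoxia replicate 3 and hypoxia replicate 1. For ARHGEF15, leaving out normoxia replicates 1, 2 and 3 gave -0.12, -0.24 and -0.74, leaving out hypoxia replicate 2 gave -0.74, and leaving out hypoxia replicate 1 gave 0.01. TGM2, the tissue transglutaminase, had 105247, 94714 and 71036 scaled reads in normoxia and 60824, 113158 and 77725 in hypoxia, the largest counts of the list. PALMD, a paralemmin relative, had 515, 762 and 733 in normoxia and 637, 579.7 and 833 in hypoxia. CD59, the membrane inhibitor of complement that most cell types carry, had 13556, 15668 and 10495 in normoxia and 12612, 12579 and 18796 in hypoxia. PALMD and CD59 were both highest in hypoxia replicate 3 and ranged less than 2-fold over the libraries.

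A list of 41 other endothelial genes was read in the same way. FLT4, JAM2, APLNR, TAL1, GJA4, GJA5 and RAMP2, 7 in all, were not found in the table. Of the 34 found, 24 were expressed in normoxia by the same definition, beside 57.5% of the protein-coding genes in the table. In normoxia 8 were detected but fell short of the definition: CLDN5, NOTCH4, DLL4, PROX1, LYVE1, VCAM1, CYYR1 and NOSTRIN. HEY2 and SELE had no reads in normoxia. The test took in 25 genes of the list. Limma called 0 of the 25 in either direction, beside 0.0977% of all genes tested. There were 18 log2 differences above 0 and 7 below, with a median of 0.17, beside 50.6% of all genes above 0. Whether that count rested on single libraries was not tested. APLN, the apelin peptide, was the 1 gene at an unadjusted p below 0.05 by limma, beside 2.69% of all genes. The groups did not overlap in 2 genes, APLN and the homeobox factor HHEX, both higher in hypoxia, beside 4.77% of all genes in that direction. Both are named after their values were seen. APLN had 4456, 4855 and 3312 scaled reads in normoxia and 7243, 9061 and 5478 in hypoxia. VE-cadherin, encoded by CDH5, stood at 151 ± 63.3 per length in normoxia and the endothelial nitric oxide synthase NOS3 at 107 ± 24.6. Von Willebrand factor, encoded by VWF, stood lower at 11.9 ± 8.51 and the VEGF receptor KDR at 4.47 ± 2.01. None of these 4 genes separated the groups: CDH5 had a log2 difference of 0.30 (interval at 95% from -0.87 up to 1.48; adjusted p = 1.00), NOS3 of -0.19 (interval at 95% from -0.81 up to 0.44; adjusted p = 1.00), VWF of -0.20 (interval at 95% from -2.53 up to 2.12; adjusted p = 1.00) and KDR of -0.85 (interval at 95% from -2.09 up to 0.40; adjusted p = 1.00), all by limma. The group means of VWF on the FPKM scale were 11.9 in normoxia and 12.1 in hypoxia, so its means and its log2 difference had opposite signs.

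Markers of other cell types were set beside the endothelial genes. Of 16 epithelial markers, 6 were not found in the table. Those expressed in normoxia were 3, the simple keratins KRT7, KRT8 and KRT18, which some endothelial cells also carry. The other 7 were detected below the level, with normoxia means of 0.212 for the adhesion molecule EPCAM, 0.173 for KRT19, 0.106 for CLDN4, 0.227 for NAPSA, 0.0171 and 0.0062 for the lung surfactant genes SFTPB and SFTPC, and 0.767 for the mucin MUC1. The summed level of the epithelial list ran from 696 to 1124 in normoxia and from 621 to 963 in hypoxia. The 3 keratins together summed to 706, 694 and 1123 in normoxia, against 962, 618 and 765 in hypoxia. Summed over the 40 endothelial genes, the levels of normoxia replicates 1 to 3 reached 3916, 3411 and 2541, and hypoxia replicates 1 to 3 reached 2532, 4389 and 3117. The libraries lowest for the endothelial sum, normoxia replicate 3 and hypoxia replicate 1, were the highest for the keratins, and hypoxia replicate 2 was highest for the one and lowest for the other. The sum is weighted to its most abundant genes, EGFL7, TGM2 and CAVIN1. Of the members 26 were lowest in normoxia replicate 3 or hypoxia replicate 1, but CAV1 was highest there. ESM1, of the other endothelial list, was also highest there, with 325, 203 and 2432 scaled reads in normoxia and 2308, 552 and 356 in hypoxia. Any link of the keratin levels to the spread of the endothelial genes was not tested.

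**Figure D4:**
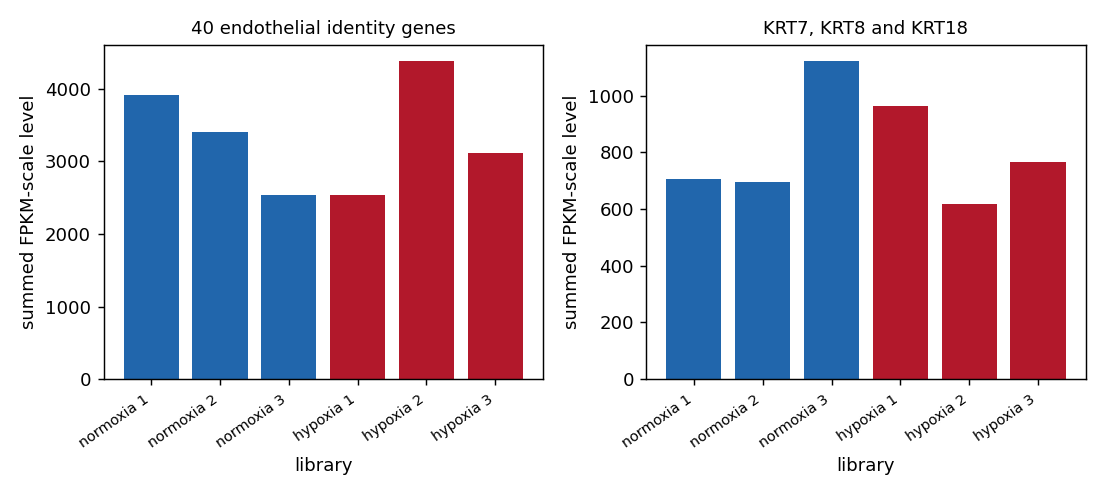
Summed FPKM-scale levels per library of the 40 endothelial identity genes (left) and of KRT7, KRT8 and KRT18 (right), with normoxia in blue and hypoxia in red. Normoxia 3 and hypoxia 1 have the lowest bars on the left and the highest on the right, and both axes start at 0.

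Of 11 fibroblast and mural markers 4 were not found in the table and 2 were expressed, RGS5 and ACTA2. The collagen genes COL1A1 and COL1A2 stood at 0.0267 and 0.0205 in normoxia. The summed level of that list was 9.47 to 17.7 in normoxia and 12.2 to 12.6 in hypoxia. Of 8 leukocyte markers 3 were not found in the table, and of 7 erythroid and megakaryocyte markers 6 were not. None of those measured met the definition of expression, with summed levels of at most 3.27 and 0.324 in any library. Of 10 NRF2 target genes known to be high in A549, 6 were expressed, with sums from 322 to 401 in normoxia and from 245 to 377 in hypoxia, while AKR1C1 and AKR1C2 were near or at 0.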

How the data were processed

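The deposited table holds a signal per gene, which for every library is a whole number of reads divided by 1 size factor, although it is named for FPKM. All values were whole multiples of the library's step (100%, tolerance 0.05 of a step), so whole reads were recovered, 17226736 to 18652704 per library. The submitters' processing notes list CASAVA, HISAT2 2.0.5 and featureCounts 1.5.0-p3 and the build mm9, although all 22153 identifiers are human. The annotation, the strand setting and the normalization tool are not stated in the labels.

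Symbols came from the supplied name table (21988 identifiers matched), and exon length, GC content and position from GENCODE 29 (GRCh38), where all identifiers were found. Because the test had been designed for FPKM, values were divided by summed exon length and mean library total (FPKM scale). Genes at 1 or more in at least 3 libraries were fitted as log2(FPKM + 0.1) with limma 3.58.1 (R 4.3.3; group as the only term, trend and robust variance), two-sided, with Benjamini-Hochberg adjustment over all 10237 genes. The log2 differences understate changes of low genes, while folds are plain ratios of group means of the scaled reads. EdgeR 4.0.16 and DESeq2 1.42.0 were run on the recovered reads as alternatives and called 9 and 58 genes, where limma called 10. Other alternatives changed the pseudocount, filter, scaling, GC content correction, replicate block or libraries kept. The fit was also run on simulated counts drawn around each gene's mean. They held no trend on GC content and no library pattern such as that described here, and the outcome is not given.

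Every member is named; library values are given for the expressed ones, and differences with intervals for members past the test, with groups apart, or among the 5 largest in each direction. The members, set by a rule that uses no measured value, and the gene lists were chosen with earlier results of these data known. Of the other endothelial list CDH5, KDR, VWF and NOS3 were set to be named, and further genes of it were named after their values were seen.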

Additional observations from a re-analysis of the deposited data

How the results depend on the processing

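The count of endothelial identity genes past the threshold was 0 in all 17 alternatives, as was that of the other endothelial list. Among the 10 members given with intervals, 169 of 170 differences kept their sign. These members were chosen by their differences in these libraries, and the filters and the replicate block left those differences unchanged. Holding the sign was thus partly fixed in advance. Over all 37 members tested, the count above 0 ran from 9 to 30 with single libraries left out. The difference of ARHGEF15 ran from -0.7429 to 0.0064 when single libraries were left out, turning positive without hypoxia replicate 1. The count of expressed members was 30 at a level of 5 or more and 37 in the other alternatives. The count over all genes, 10 in the reported fit, was 4 with no filter, 26 after GC correction, 58 by DESeq2, and between 1 and 24 with single libraries left out. Chosen after seeing the data, leaving out normoxia replicate 3 with hypoxia replicate 1 gave 18, and normoxia replicate 1 with hypoxia replicate 2 gave 1. With the replicate number as a block it was 19, and 43 with block and GC correction; the block changed no call of a member. The cause of these differences was not tested. Whether equal numbers pair the libraries is not labelled. Deviations of same-numbered libraries correlated across genes at -0.40, 0.24 and 0.22, and normoxia replicate 1 correlated with hypoxia replicate 2 at 0.61. These correlations cannot settle it, because the deviations of the 3 libraries of a group are bound to sum to 0. No scaling moved the median of all genes by over 0.1. With 3 libraries per group, the intervals of 20 of the 37 members tested reached beyond 2-fold.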

Other observations

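Ratios between related members within a library, chosen after their values were seen and taken per length, varied far less for one pair than for others. MMRN2, the matrix ligand, and CLEC14A, its surface receptor, kept a ratio of 1.46, 1.23 and 1.32 in normoxia and 1.39, 1.43 and 1.31 in hypoxia, while each gene ranged over 4-fold. ERG to FLI1 ran from 0.81 to 1.23. In contrast SOX18 to SOX7 ran from 2.92 to 7.87 and TIE1 to TEK from 4.35 to 11.0. The caveolar pair CAVIN1 to CAV1 stood at 3.71, 2.62 and 1.03 in normoxia and 1.03, 2.63 and 1.44 in hypoxia. ETS1 to ETS2 stood at 0.535, 0.931 and 1.62 in normoxia and 2.23, 1.24 and 2.12 in hypoxia, with normoxia replicate 3 above hypoxia replicate 2. These ratios are descriptions, and no test was run on them. The GC content of the transcripts was 57.6% for MMRN2 and 58.9% for CLEC14A, and 46.4% for ERG and 42.7% for FLI1. For SOX18 and SOX7 it was 69.4% and 52.1%, and for TIE1 and TEK 60.8% and 45.1%. CAVIN1 and CAV1 had 59.9% and 46.2%, and ETS1 and ETS2 had 42.6% and 48.7%. The part of GC content in the ratios was not tested.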
